A study of Mus musculus with 6 samples.

Results

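The 41 genes described here carry a cell from G1 into S phase and copy its DNA. They were taken by gene symbol from the authors' comparison table and joined to the log2 value of each array. All 41 were found, among 24642 named genes and 41345 transcript clusters, the probe groups that an array assigns to a transcript. Where a symbol had several rows, as for Fen1, Rb1 and Rrm2, the row with the highest mean over the 6 arrays was used. Every member had both group means above 4.55, the median over the transcript clusters, so none rested on a dim probe group by that measure.

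The arrays measured total RNA from mouse oviductal epithelial (MOE) cells, the mouse counterpart of the fallopian tube lining. One stable line carried the empty vector pCMV-Neo and gave 3 arrays, and another carried a plasmid with p53 R273H, a missense form of the tumour suppressor p53 with an altered DNA-binding domain, and gave 3. Both lines came from the same parental cells by transfection and clonal growth under antibiotic selection, and how many clones make up each is not stated in the labels. Both grew in the same medium, with serum, epithelial growth factor, insulin, transferrin, selenite, gentamycin, penicillin, streptomycin and β-estradiol in ethanol. The arrays of a line are its consecutive passages, so p-values reflect variation among passages only. An effect of the plasmid and a difference between lines cannot be told apart. In RNA from a whole culture, fewer cells in a phase and less RNA per cell cannot be told apart either.

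D-type cyclins with Cdk4 or Cdk6, and E-type cyclins with Cdk2, phosphorylate the retinoblastoma protein and free the E2F factors, which switch on genes for DNA replication. Inhibitors of the INK4 family block Cdk4 and Cdk6, and those of the Cip/Kip family act mainly on Cdk2. In G1 the Mcm helicase is loaded onto origins, and in S phase Cdc45 and the GINS complex start it, after which polymerases and the sliding clamp copy the DNA. The oviductal epithelium is a proposed origin of high-grade serous ovarian cancer, in which p53 mutations and lesions of the RB pathway are known.

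Array medians were 4.51 to 4.58. The number of arrays limits the precision of every value. Trp53, the mouse gene for p53, read 10.05, 10.00 and 10.14 on the empty vector arrays and 9.49, 9.28 and 9.39 on the p53 R273H arrays, and fell by 0.68 ± 0.10 (SE) on the log2 scale (limma adjusted p = 0.0017). Probe sequences were not available, so this signal does not check the labels. Of 12 oviductal epithelial markers, 2 rose, 5 fell and 5 did not pass the test, and their summed linear signal ran from 5798 to 5851 with empty vector and from 6030 to 6155 with p53 R273H. Epcam (means 4.05 ± 0.10 and 4.03 ± 0.11, SD, n = 3) and Msx1 (3.94 ± 0.28 and 4.11 ± 0.16) lay below the median of all transcript clusters, as did Esr1, one of the risen, with empty vector. Summed in the same way, fibroblast markers ran from 138 to 175 with empty vector and from 416 to 463 with p53 R273H, with 3 of 6 risen and 1 fallen, and Lum, Thy1 and, with empty vector, Dcn were below that median. Dcn made up 57.4% to 61.4% of the sum with p53 R273H. Smooth muscle markers ran from 1079 to 1213 and from 3500 to 3728 (2 of 5 risen, 1 fallen), with Des below that median in both groups. Acta2 made up 80.1% to 84.1% of that sum with empty vector and 93.4% to 93.9% with p53 R273H. Endothelial markers ran from 97 to 103 and from 151 to 166 (1 of 5 risen), with Tek, Emcn and, with empty vector, the risen Kdr below that median. Leukocyte markers ran from 325 to 357 and from 236 to 245 (1 of 6 risen, 1 fallen), and 5 of the 6, the risen Ptprc among them, were below that median. Cd68, which fell, made up 77.5% to 78.6% of the leukocyte sum with empty vector and 64.5% to 68.4% with p53 R273H. Mesothelial and ovarian surface markers ran from 1513 to 1649 and from 854 to 865 (1 of 5 risen, 2 fallen), with Lrrn4 and Calb2 below that median in both groups. Msln, which fell, made up 81.6% to 83.7% of that sum with empty vector and 80.2% to 81.5% with p53 R273H. The part of these markers in the results below was not tested.

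The comparison asks which of the 41 genes differ between the p53 R273H line and the empty vector line. Among them 11 rose, 5 fell and 25 did not pass limma's test at an adjusted p under 0.05. The largest rises were in the kinase inhibitor Cdkn1b, the ribonucleotide reductase subunit Rrm2 and the cyclin Ccnd2, each at least 2-fold. The largest falls were in Rb1, which codes for the retinoblastoma protein and was also at least 2-fold lower, and in the repressor E2f8. Changes went both ways among inhibitors and among E2F factors, while the helicase genes Mcm2 to Mcm7 had log2 fold changes between -0.36 and 0.08.

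The 16 called members were 39% of the 41, where 23.6% of all 24642 genes were called. For 14885 expressed genes, those with a higher group mean over 4.55, the share was 36.6%, so the members' share was near that of expressed genes. The roles below hold few genes each, and their counts are to be read beside that 36.6%. Over all genes 11.9% rose and 11.7% fell. The 3 values of one group lay wholly above those of the other for 23 members (56.1%), against 38.1% of all genes and 54.7% of expressed genes. The median log2 fold change of the members was 0.08, beside 0.02 over all genes and 0.00 over expressed genes. In the authors' deposited table, made from the same 6 arrays, the step-up p-value was under 0.05 for 12 members, and limma called all 12. The remaining called members had deposited step-up p-values above 0.05: Rfc3 (0.0516), Rfc4 (0.0644), Fen1 (0.0964) and E2f7 (0.125). Mki67, a general marker of cycling cells, read 9.71, 9.85 and 9.84 with empty vector and 9.79, 9.83 and 9.76 with p53 R273H (log2 fold change -0.01 ± 0.09 SE, adjusted p = 0.964).

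**Figure D1:**
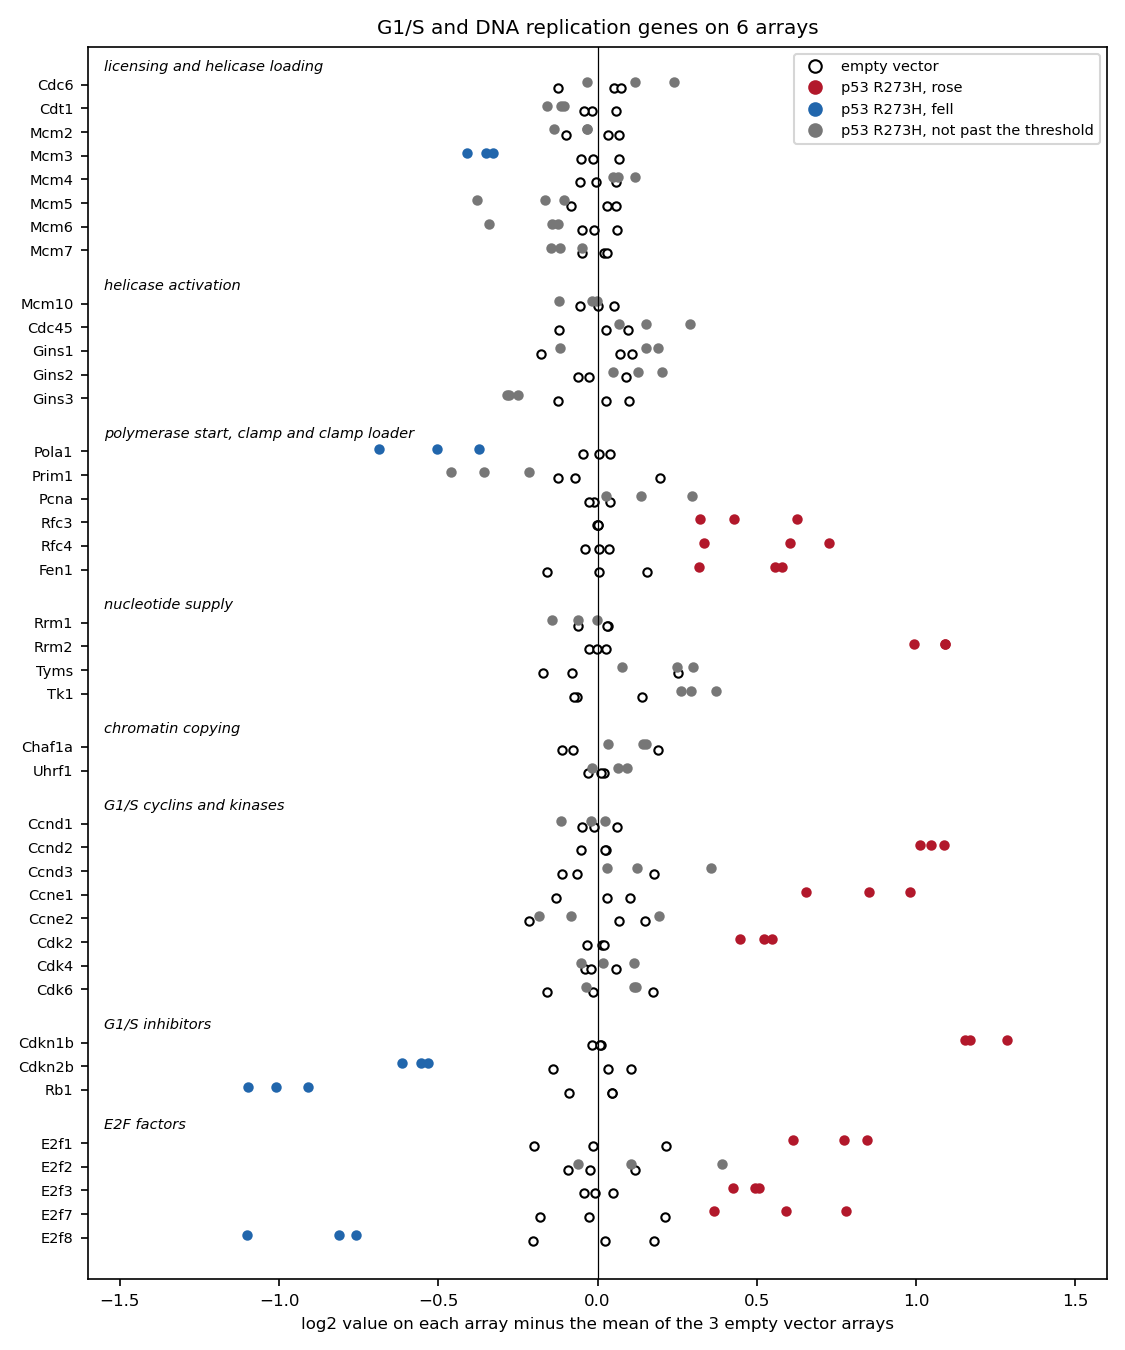
Log2 value of each of the 41 genes on each array minus the mean of the 3 empty vector arrays, grouped by role, with open circles for empty vector and filled circles for p53 R273H (red, rose; blue, fell; grey, not past the threshold). The filled points of Cdkn1b, Rrm2 and Ccnd2 lie near or above 1 on the right and those of Rb1 near -1 on the left, while most licensing and helicase genes scatter around 0.

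All 3 inhibitors of G1/S progression among the members were called, where 36.6% of expressed genes were, and not in the same direction. With 3 genes this count says little about the role as a whole. Cdkn1b, which codes for the Cip/Kip protein p27, read 7.37, 7.34 and 7.37 on the empty vector arrays and 8.65, 8.51 and 8.53 on the p53 R273H arrays. All p53 R273H values lay more than 1 log2 unit above all empty vector values, and Cdkn1b rose by 1.20 ± 0.09 (SE; 2.3-fold, adjusted p = 5.08e-05), the largest rise of any member. Cdkn2b, an INK4 inhibitor of Cdk4 and Cdk6, went the other way. Its values were 8.16, 7.99 and 8.24 with empty vector and 7.58, 7.60 and 7.52 with p53 R273H, with no overlap, and it fell by 0.57 ± 0.10 (adjusted p = 0.00444). Rb1 read 8.62, 8.75 and 8.75 with empty vector and 7.80, 7.70 and 7.61 with p53 R273H. It fell by 1.01 ± 0.10 (2.01-fold, adjusted p = 0.000208), again with no overlap. A second row named Rb1 was dim, with means of 2.36 and 2.42, and the mean over both rows fell by 0.47 (adjusted p = 0.0077). Rb1 lies on chromosome 14, with an expressed median of -0.28 for the log2 fold change, and its value minus that median was -0.73.

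Other inhibitors and their regulators came from a list of 100 further genes of the pathway, of which 99 were measured. Cdkn2c, another INK4 gene, read 6.92, 6.82 and 6.99 with empty vector and 8.23, 8.32 and 8.57 with p53 R273H. Its relative Cdkn2d read 6.36, 6.73 and 6.51 with empty vector and 7.96, 7.92 and 8.12 with p53 R273H. In both genes every p53 R273H array was the higher by more than 1 log2 unit, and the rises were 1.46 ± 0.12 for Cdkn2c (SE; 2.76-fold, adjusted p = 7.28e-05) and 1.46 ± 0.12 for Cdkn2d (adjusted p = 9.23e-05). The INK4 genes did not share a direction: Cdkn2b fell, and Cdkn2a, the remaining member of the family, added outside the rule for named genes, read 8.42, 8.57 and 8.45 with empty vector and 8.24, 8.63 and 8.56 with p53 R273H, with overlap (adjusted p = 0.989). Skp2, the ubiquitin ligase subunit that marks the p27 protein for degradation, read 10.02, 9.95 and 9.92 with empty vector and 8.27, 8.56 and 8.42 with p53 R273H. It fell by 1.55 ± 0.10 (2.93-fold, adjusted p = 3.27e-05), the largest fall among the members and the 99 genes. Skp2 lies on chromosome 15, where the expressed median was -0.41, and its value minus that median was -1.14. Minus the median of its nearest expressed genes, up to 40 of them on the same chromosome, it was -0.69. Cdkn1a, the Cip/Kip gene that p53 is known to activate, read 9.86, 9.97 and 10.12 with empty vector and 9.84, 9.67 and 9.89 with p53 R273H. The groups overlapped and its log2 fold change of -0.18 ± 0.11 did not pass (adjusted p = 0.309).

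**Figure D2:**
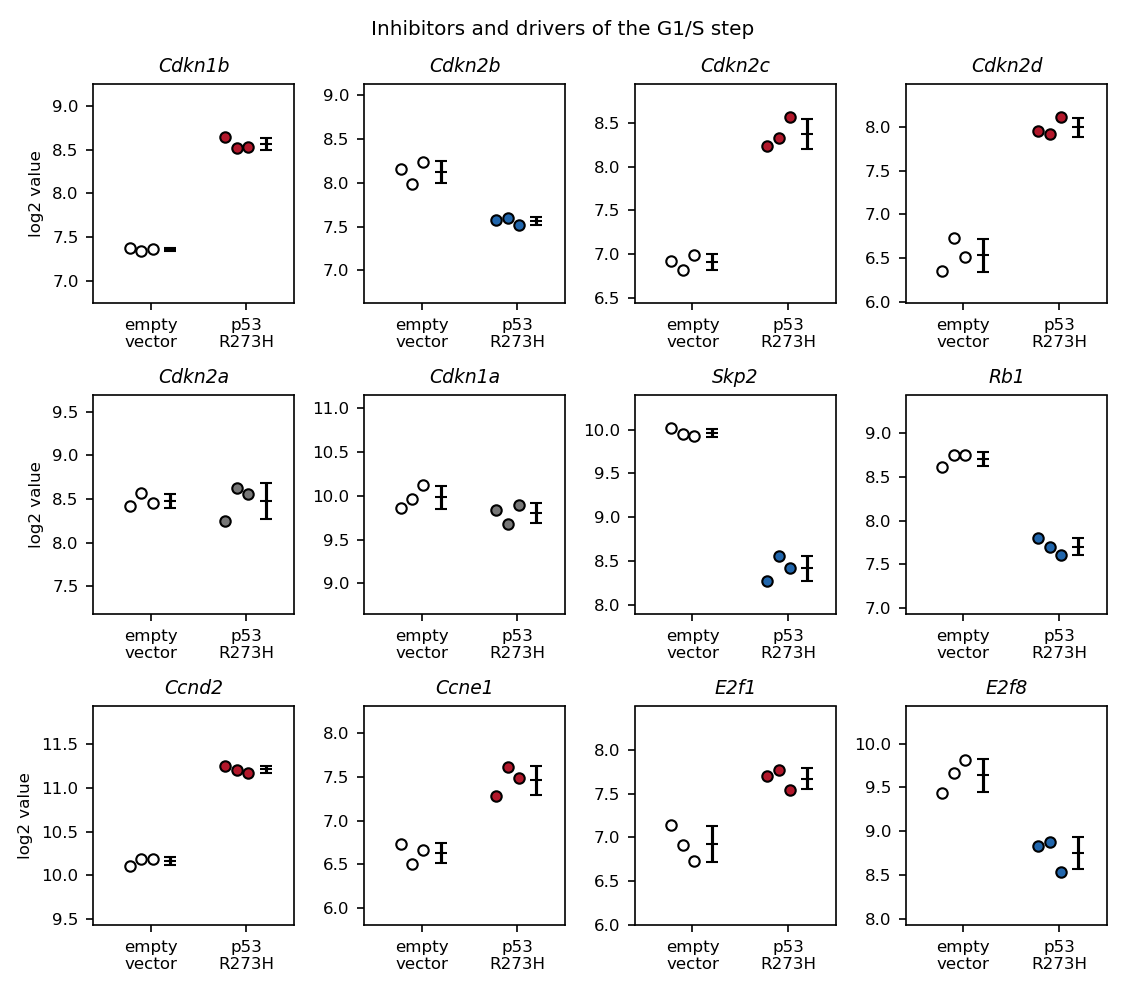
Log2 values of 12 G1/S genes on the 3 empty vector and 3 p53 R273H arrays, with the mean and SD of each group beside the points; each panel has its own axis. Cdkn1b, Cdkn2c and Cdkn2d lie higher and Cdkn2b, Skp2 and Rb1 lower with p53 R273H without overlap, while the values of Cdkn2a and Cdkn1a overlap.

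Of 8 cyclins and kinases, 3 rose and 5 did not pass (37.5% called, beside 36.6% of expressed genes). Ccnd2 (cyclin D2) read 10.11, 10.19 and 10.19 with empty vector and 11.25, 11.21 and 11.18 with p53 R273H. The groups stood about 1 log2 unit apart, and Ccnd2 rose by 1.05 ± 0.09 (SE; 2.07-fold, adjusted p = 9.03e-05). Ccne1 (cyclin E1), an activating partner of Cdk2, read 6.73, 6.50 and 6.66 with empty vector and 7.29, 7.61 and 7.48 with p53 R273H and rose by 0.83 ± 0.12 (adjusted p = 0.00156). Cdk2 itself read 8.74, 8.70 and 8.75 with empty vector and 9.25, 9.18 and 9.28 with p53 R273H and rose by 0.51 ± 0.09 (adjusted p = 0.00392). The groups overlapped for neither gene. The other D-type cyclins and their kinases did not pass. Ccnd1, the cyclin D1 gene, read 11.01, 11.05 and 11.12 with empty vector and 11.08, 11.04 and 10.95 with p53 R273H, and the order of the arrays mixed the groups (log2 fold change -0.04, adjusted p = 0.834). The log2 fold changes were 0.17 for Ccnd3, 0.03 for Cdk4 and 0.07 for Cdk6, with overlap in all 3. Ccne2, the gene of cyclin E2, had a log2 fold change of -0.02 ± 0.14 (adjusted p = 0.933), but its row also names Ints8, an Integrator subunit gene. The separate row of Ints8, looked up after the values were seen, fell by 0.45 (adjusted p = 0.0189), a call lost when any of the empty vector arrays or p53 R273H replicate 2 was left out.

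Of 5 E2F factors, 3 rose, 1 fell and 1 did not pass (80% called, beside 36.6% of expressed genes). E2f1, an activator of S phase genes, read 7.14, 6.91 and 6.73 with empty vector and 7.70, 7.77 and 7.54 with p53 R273H, without overlap, and rose by 0.74 ± 0.13 (SE; adjusted p = 0.00421). Minus the median of its nearest expressed genes its value was 0.40. E2f3, also an activator, read 7.19, 7.10 and 7.14 with empty vector and 7.57, 7.64 and 7.65 with p53 R273H and rose by 0.48 ± 0.09 (adjusted p = 0.00548). The atypical repressors E2f7 and E2f8, which bind DNA without a dimerization partner, moved in opposite directions. E2f7 read 6.32, 6.48 and 6.72 with empty vector and 7.29, 7.10 and 6.87 with p53 R273H, and rose by 0.58 ± 0.15 (adjusted p = 0.0227). That call was lost without empty vector replicate 1 (adjusted p = 0.0777), empty vector replicate 2 (0.0700), p53 R273H replicate 1 (0.0683) or p53 R273H replicate 2 (0.0618). With all arrays kept, the E2f7 call was also lost without moderation of the variance (adjusted p = 0.0954). E2f8 read 9.44, 9.66 and 9.81 with empty vector and 8.83, 8.88 and 8.54 with p53 R273H, with all p53 R273H values the lower, and fell by 0.89 ± 0.14 (adjusted p = 0.00233). E2f2, the remaining activator, had means of 5.13 and 5.28 and overlapping groups (log2 fold change 0.15, adjusted p = 0.515). Among the 14 further genes of RB, E2F partners and the DREAM repressor complex, Lin54, a DNA-binding DREAM subunit, rose by 0.97 ± 0.11 (adjusted p = 0.000387). Tfdp2, a dimerization partner of E2F proteins, fell by 0.71 ± 0.11 (adjusted p = 0.00293), and 1 more fell and 11 did not pass.

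Promoters of the members were read for the letters that E2F factors are known to bind, since E2F genes changed in both directions. RefSeq promoter sequences (250 bases before to 50 after the start, mouse build GRCm38.p6) were found for 34 of the 41 members. The motifs searched on both strands were TTTCCCGC, TTTCGCGC, TTTGCCGC and TTTGGCGC, which can overlap each other. A match was found for 14 of 34 members (41.2%) and for 22 of 82 other pathway genes (26.8%), against 704 of 27025 genes with any RefSeq promoter of the same length (2.6%) and 744 of all 32851 such promoters (2.26%). Both lists were gathered by function, in a step that E2F factors are known to switch on. The excess over all genes therefore follows from the lists and is not a result of these arrays. By call, the share was 4 of 10 (40%) among members that rose, 2 of 4 (50%) among those that fell and 8 of 20 (40%) among those that did not pass. The windows below, from 110 bases before to 30 bases after the start, show a member that rose for each of the clamp loader and the E2F factors, the Mcm gene that fell and an Mcm gene that did not pass. All 4 hold a match and so do not stand for the members at large. No match was found for Rfc4 and E2f1, which also rose, or for Mcm2, which did not pass. Each is printed on the strand of the gene, which is the minus strand for all 4, with matched letters in capitals.
Rfc3, chr5:151651179-151651318: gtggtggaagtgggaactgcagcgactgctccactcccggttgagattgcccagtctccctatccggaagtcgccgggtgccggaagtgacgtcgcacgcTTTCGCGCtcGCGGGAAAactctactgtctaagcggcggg
E2f3, chr13:29986034-29986173: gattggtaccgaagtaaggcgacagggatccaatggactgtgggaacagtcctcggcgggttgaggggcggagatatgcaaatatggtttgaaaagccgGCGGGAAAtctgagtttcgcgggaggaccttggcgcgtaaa
Mcm3, chr1:20820283-20820422: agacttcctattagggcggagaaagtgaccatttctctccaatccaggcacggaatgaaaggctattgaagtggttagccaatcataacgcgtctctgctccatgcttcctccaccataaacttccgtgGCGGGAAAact
Mcm6, chr1:128359676-128359815: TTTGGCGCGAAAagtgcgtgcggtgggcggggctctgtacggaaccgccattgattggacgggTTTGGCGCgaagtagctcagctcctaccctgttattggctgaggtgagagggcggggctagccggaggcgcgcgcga
Rfc3, which rose, holds 2 matches next to its start. E2f3, which rose, holds 1 in this window, in the first of the promoters listed for it, and Mcm3, which fell, holds 1 just after the start, with another further on outside the window. Mcm6 holds 3, of which 2 overlap in the first capital run, and it did not pass the test. A match describes letters in this window and not a bound site.

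Most helicase loading genes did not pass the test. Of 8 licensing members, 1 fell and 7 did not pass, and the median log2 fold change was -0.12. Mcm3, a subunit of the replicative helicase, read 9.77, 9.73 and 9.85 with empty vector and 9.43, 9.46 and 9.38 with p53 R273H, and fell by 0.36 ± 0.09 (SE; adjusted p = 0.0201). The groups did not overlap, but the call was lost without empty vector replicate 1 (adjusted p = 0.0556), empty vector replicate 3 (0.0749) or p53 R273H replicate 3 (0.0590). The other helicase subunits gave log2 fold changes of -0.07 for Mcm2, 0.08 for Mcm4, -0.22 for Mcm5, -0.20 for Mcm6 and -0.10 for Mcm7. In 4 of the 6 subunits, Mcm3, Mcm5, Mcm6 and Mcm7, every p53 R273H array was below every empty vector array, where groups did not overlap in either direction for 54.7% of expressed genes. The median log2 fold change over the 6 was -0.15. The loading factors Cdc6 (0.11, adjusted p = 0.563) and Cdt1 (-0.13, adjusted p = 0.365) did not pass. None of the 5 helicase activation genes passed limma's test, although Gins3, of the GINS complex, had an unadjusted p under 0.05. Gins3 read 7.95, 8.10 and 8.17 with empty vector and 7.82, 7.79 and 7.80 with p53 R273H, with all p53 R273H values the lower (log2 fold change -0.27 ± 0.10, adjusted p = 0.0832). Mcm10 (-0.05), Cdc45 (0.17), Gins1 (0.07) and Gins2 (0.13) had overlapping groups.

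The list of further genes held 16 of origin recognition and licensing control, of which 4 rose and 2 fell. Dbf4, the activating subunit of the kinase that fires origins, read 8.02, 8.08 and 7.84 with empty vector and 8.82, 8.74 and 9.02 with p53 R273H, and rose by 0.88 ± 0.11 (adjusted p = 0.000959). Its catalytic partner Cdc7, named after its values were seen, rose by 0.67 ± 0.14 (adjusted p = 0.0103). Both lie on chromosome 5, whose expressed genes had a median of 0.47. Minus that median the values were 0.41 and 0.20, and minus those of their nearest expressed genes 0.24 and 0.22.

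Genes that start and extend DNA strands changed in both directions, with 3 of 6 members risen, 1 fallen and 2 not past the threshold. That is 66.7% called, beside 36.6% of expressed genes. Pola1, the catalytic subunit of the polymerase that begins each strand, read 8.04, 7.95 and 8.002 with empty vector and 7.31, 7.49 and 7.62 with p53 R273H. It fell by 0.52 ± 0.11 (SE; adjusted p = 0.00944) with no overlap. Pola1 lies on the X chromosome, where expressed genes had a median of -0.30, and its value was -0.22 minus that median and -0.13 minus the median of its nearest expressed genes. Prim1, the primase subunit of the same complex, read 9.20, 8.88 and 8.93 with empty vector and 8.54, 8.64 and 8.79 with p53 R273H. The groups did not overlap but the difference of -0.34 ± 0.12 did not pass (adjusted p = 0.081), and minus the median of its nearest expressed genes it was -0.57. Pcna, the sliding clamp, had a log2 fold change of 0.15 ± 0.10 (adjusted p = 0.354). Fen1, the nuclease that trims lagging strand fragments, read 6.56, 6.72 and 6.87 with empty vector and 7.03, 7.29 and 7.27 with p53 R273H, and rose by 0.48 ± 0.12 (adjusted p = 0.0227), and its second row differed by 0.43. The Fen1 call was lost without empty vector replicate 1 (adjusted p = 0.0769), empty vector replicate 2 (0.0658), p53 R273H replicate 2 (0.0741) or p53 R273H replicate 3 (0.0722). With all arrays kept, it was also lost without moderation of the variance (adjusted p = 0.0722).

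The clamp loader, replication factor C, places the sliding clamp on DNA, and all 5 of its subunit genes rose. Rfc3 read 6.97, 6.97 and 6.97 with empty vector and 7.40, 7.30 and 7.60 with p53 R273H, without overlap. It rose by 0.46 ± 0.11 (SE; adjusted p = 0.0152), and the adjusted p was 0.0505 without empty vector replicate 2. Rfc4 read 7.75, 7.83 and 7.80 with empty vector and 8.13, 8.40 and 8.52 with p53 R273H, and rose by 0.55 ± 0.12 (adjusted p = 0.0114). The row of Rfc4 also names Eif4a2, a translation initiation gene with 3 rows of its own. The one with the highest mean, looked up after the values were seen, fell by 0.95 (adjusted p = 0.000579). The rises of the subunits outside the members were 0.86 ± 0.12 for Rfc2, 0.78 ± 0.11 for Rfc1 and 0.58 ± 0.11 for Rfc5, the last named after its values were seen. Rfc1, Rfc2, Rfc3 and Rfc5 lie on chromosome 5, where 57.3% of expressed genes rose. Minus the chromosome 5 median of expressed genes their values were 0.31, 0.38, -0.01 and 0.11, so that of Rfc3 no longer had a positive sign. Minus the medians of their nearest expressed genes they were 0.38, 0.27, -0.16 and 0.16. Rfc4 lies on chromosome 16, and its value was 0.44 minus the median there and 0.24 minus that of its nearest expressed genes. Among the 30 further genes of the fork, polymerases and lagging strand, 7 rose and 4 fell. Wdhd1, a fork scaffold that binds the first polymerase, fell by 0.76 ± 0.10 (adjusted p = 0.00104), and Rnaseh2b, a subunit of the enzyme that removes ribonucleotides from DNA, fell by 0.58 ± 0.13 (adjusted p = 0.0141).

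Of the 4 members that supply nucleotides, Rrm2 rose and 3 did not pass. Rrm2, the small subunit of ribonucleotide reductase, read 9.75, 9.69 and 9.72 with empty vector and 10.81, 10.71 and 10.81 with p53 R273H. The groups lay close to 1 log2 unit apart and Rrm2 rose by 1.06 ± 0.09 (SE; 2.08-fold, adjusted p = 8.97e-05), and a second, dimmer Rrm2 row differed by 1.31. Rrm1, the large subunit of the same enzyme, read 9.79, 9.89 and 9.88 with empty vector and 9.79, 9.71 and 9.85 with p53 R273H, with overlap (log2 fold change -0.07 ± 0.09, adjusted p = 0.666). Tk1, the S phase thymidine kinase, read 8.05, 7.85 and 7.84 with empty vector and 8.21, 8.17 and 8.28 with p53 R273H. Its groups did not overlap and its difference of 0.31 ± 0.10 did not pass (adjusted p = 0.0604, or 0.0479 without empty vector replicate 1). Tyms, thymidylate synthase, gave 0.21 ± 0.13 with overlap (adjusted p = 0.334). Of 9 further nucleotide genes, 2 rose and 3 fell. Among the fallen was Rrm2b, named after its values were seen, the reductase subunit that p53 is known to induce, which read 8.47, 8.50 and 8.27 with empty vector and 7.78, 8.09 and 8.03 with p53 R273H and fell by 0.45 ± 0.12 (adjusted p = 0.0286). The call of Rrm2b was lost without empty vector replicates 1 or 2 or p53 R273H replicates 1 or 3, taken singly. It lies on chromosome 15, and its value was -0.04 minus the median there and 0.05 minus that of its nearest expressed genes.

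Neither member that copies chromatin behind the fork passed the test. Chaf1a, the large subunit of the histone chaperone CAF-1, gave a log2 fold change of 0.11 ± 0.11 (SE; adjusted p = 0.558). Uhrf1, which guides maintenance of DNA methylation, gave 0.05 ± 0.09 (adjusted p = 0.775). Of 9 further chromatin genes, 2 rose and 2 fell. Supt16, a subunit of the histone chaperone FACT, read 10.44, 10.41 and 10.38 with empty vector and 9.68, 9.69 and 9.82 with p53 R273H, and fell by 0.68 ± 0.09 (adjusted p = 0.00105). Nasp, a chaperone of histone H3 and H4, fell by 0.54 ± 0.10 (adjusted p = 0.00565).

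Over the 99 further pathway genes, 20 rose, 14 fell and 65 did not pass, and the median log2 fold change was -0.05. The 34 called genes were 34.3%, again near the 36.6% of expressed genes. The count of fallen genes was 8 without empty vector replicate 1, and 9 without empty vector replicate 2, empty vector replicate 3 or p53 R273H replicate 3. Of the 34 called genes, 18 kept the call in all 15 other fits, among them Skp2, Cdkn2c, Cdkn2d, Lin54, Dbf4, Rfc1, Rfc2, Rfc5, Wdhd1, Tfdp2, Supt16 and Nasp. Cdc7 and Rnaseh2b lost it only without moderation of the variance. The other 14 lost it when some single array was left out, so the small counts by role above rest partly on single arrays. Among them were Cdc34, Chtf18, Dck, Dscc1, Dut, Gins4, Mtbp, Orc3, Pold2, Rbl2, Rrm2b, Samhd1 and Ssrp1, named after their values were seen. Dscc1, which helps load the clamp, and Samhd1, which degrades nucleotides, lost it with each of the 6 arrays in turn, and over all fits their adjusted p ran up to 0.0964 and 0.111.

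Position along the genome moved with several of these results. All 10 further pathway genes on chromosome 5 rose (Lin54, Dbf4, Rfc2, Rfc1, Slbp, Cdc7, Rfc5, Orc5, Pole and Dck, listed for their position), with a median of 0.70. On that chromosome 57.3% of 924 expressed genes rose, and their median was 0.47. Of 89 further pathway genes on other chromosomes, 10 rose and 14 fell, and their median was -0.10. Of the 4 members on chromosome 5, Rfc3 rose and Mcm7, Tyms and Cdk6 did not pass. The values of these last 3 minus the chromosome median were -0.58, -0.26 and -0.41. All 4 genes of both lists on chromosome 14, Rb1, Wdhd1, Supt16 and Rnaseh2b, fell, and 4 of 5 on chromosome 15 (Skp2, Mtbp, Rrm2b and Dscc1) fell, where the expressed medians were -0.28 and -0.41. Of the expressed genes there, 40.3% of 489 on chromosome 14 and 54.3% of 589 on chromosome 15 fell. Minus the medians of their nearest expressed genes, Wdhd1, Supt16 and Rnaseh2b had -0.35, -0.32 and -0.47, and Lin54 on chromosome 5 had 0.51. The calls of Dck, Mtbp, Rrm2b and Dscc1 were each lost with some single array left out, as given above. Subtracting the chromosome's median turned the sign of 1 of the 16 called members, Rfc3, and subtracting the median of the nearest expressed genes turned that of Rfc3 as well (-0.16). Among the 34 called pathway genes the chromosome's median turned the sign of 2, Dscc1 and Dck, and the nearest genes that of 5, Orc5, Mtbp, Pole, Dscc1 and Rrm2b. Cdkn1b and Ccnd2 lie on chromosome 6, where the median was 0.04, and kept 1.16 and 1.01. What set the medians of these chromosomes was not tested.

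**Figure D3:**
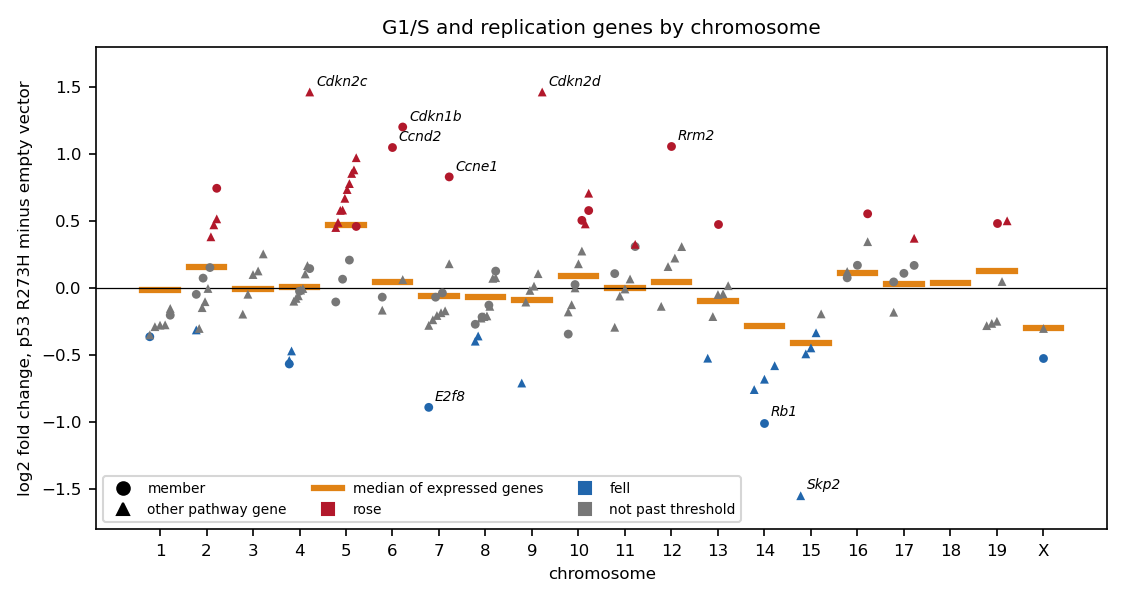
Log2 fold change (p53 R273H minus empty vector) of the members (circles) and of the other pathway genes (triangles) by chromosome, coloured by the test, with orange bars at the median of expressed genes of each chromosome. Chromosome 5 has its bar at 0.47 with all 10 triangles red, and on chromosomes 14 and 15, with bars at -0.28 and -0.41, 8 of 9 points are blue.

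Related genes of the same step were then set against each other within each array, which cancels a shift shared by both. For 10 pairs the difference of log2 values was compared between groups with a two-sided exact permutation test, whose smallest possible p with 3 arrays against 3 is 0.1, so no pair could pass. The levels behind these differences come from different probes, and only the shift between groups is interpretable. Rrm1 minus Rrm2 was 0.05, 0.19 and 0.17 with empty vector and -1.02, -0.999 and -0.96 with p53 R273H, a shift of -1.13 ± 0.05 (SE). E2f7 minus E2f8 was -3.11, -3.18 and -3.10 with empty vector and -1.54, -1.78 and -1.66 with p53 R273H, a shift of 1.47 ± 0.07, the largest of the 10. Ccnd1 minus Ccnd2 was 0.90, 0.86 and 0.93 with empty vector and -0.17, -0.17 and -0.23 with p53 R273H, a shift of -1.09 ± 0.03. In these 3 pairs the groups stood apart by far more than the spread within either. The groups also did not overlap for Ccnd1 minus Ccnd3 (-0.21), Ccnd2 minus Ccnd3 (0.88), Ccne1 minus Ccne2 (0.85) and E2f1 minus E2f2 (0.60). Each of these 7 pairs had an exact permutation p of 0.1, or 0.143 adjusted over the 10 pairs. The groups overlapped for E2f1 minus E2f3, with a shift of 0.27 (exact p = 0.2), for Cdk4 minus Cdk6 (-0.04, exact p = 0.8) and for Gins1 minus Gins2 (-0.05, exact p = 0.6), whose sign turned under quantile normalization (0.05).

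**Figure D4:**
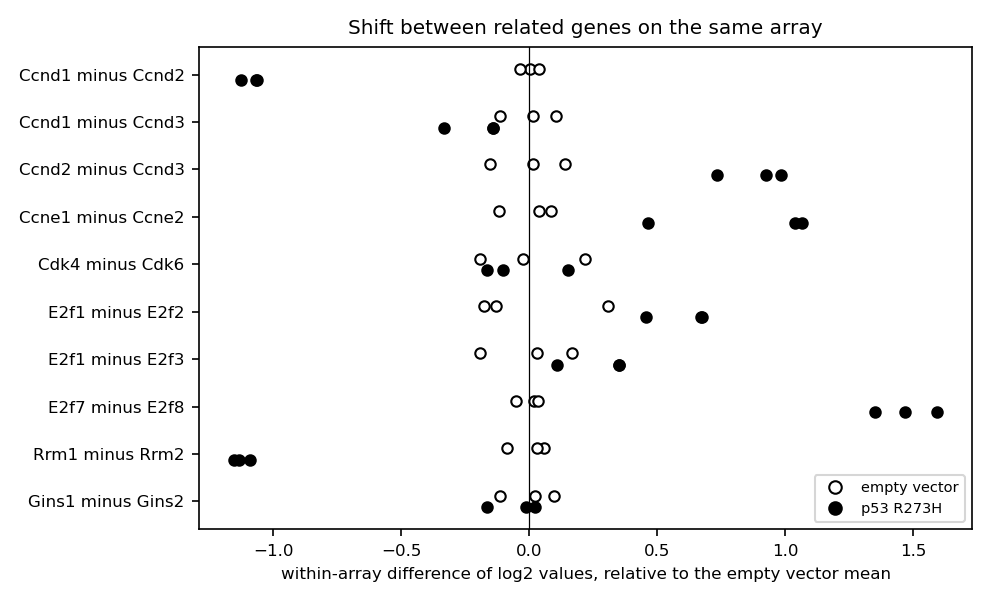
Difference of the log2 values of 2 related genes on the same array, relative to the mean of the 3 empty vector arrays, with open circles for empty vector and filled circles for p53 R273H. The filled circles of E2f7 minus E2f8 lie to the far right and those of Ccnd1 minus Ccnd2 and Rrm1 minus Rrm2 near -1.1, while those of Cdk4 minus Cdk6 and Gins1 minus Gins2 mix with the open ones.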

How the data were processed

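Biotin-labelled total RNA of 6 cultures was hybridised to whole-transcript arrays, per the labels' protocols. The deposited values are log2 expression, for 41345 transcript clusters. How the authors corrected background, summarized probes and normalized arrays, and the array model, is not stated in the labels or file headers. The authors' ratio, put on the log2 scale, differed from the difference of group means by at most 6.64e-05, which shows the scale. Their table also holds a signed fold (a score) and p-value columns, plain and step-up, per the file headers.

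Symbols came from that table. Of 27032 rows with a symbol, 25 held a date in its place and were renamed by RefSeq accession where possible, and 1646 genes had several rows. Rows that also name another gene (811) were kept. The test was limma (version 3.58.1, R 4.3.3; lmFit, eBayes, no covariates, two-sided) over 24642 genes, with Benjamini-Hochberg adjustment and a threshold of 0.05. It was tested on simulated data. The RefSeq table (GRCm38.p6) gave chromosomes for 23498 genes.

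The members, lists and tests were chosen with earlier results of these data known. All members are named, with Trp53, Cdkn1a, Mki67 and the 6 largest rises and falls among called pathway genes, and any further pathway gene is marked as such. Some pathway genes are counted but not reported here by name. Ticrr was not matched, and Supt16 is deposited as Supt16h. Alternatives were quantile normalization, array medians subtracted, filters on dim genes (30th and 50th percentile), the mean over a gene's rows, other variance models, a replicate block, each array left out, and chromosome medians subtracted. Leaving out rows that name several genes and subtracting the median of up to 40 nearest expressed genes were chosen after seeing the data.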

Additional observations from a re-analysis of the deposited data

How the results depend on the processing

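Of the 16 called members, 12 kept their call and direction in each of the 15 other fits that held them. Rfc4, among the 12, was absent from the fit that left out rows naming several genes. E2f7, Fen1, Mcm3 and Rfc3 lost theirs in some, and Gins3, Prim1, Tk1 and Mcm5 gained one in some. The count of members risen ran from 8 to 12 and that of members fallen from 4 to 8, with 8 fallen under trended and robust variance. Among the 99 further pathway genes, 26 fell with genes under the 50th percentile left out and 25 under trended and robust variance, against 14, and leaving out each array in turn gave 8 to 12. Subtracting the chromosome median moved Rfc3 to -0.013, and subtracting that of its nearest expressed genes to -0.16. Nearest genes also moved E2f1 from 0.74 to 0.40, Rfc4 from 0.55 to 0.24 and Pola1 from -0.52 to -0.13. The shift of paralogue pair Gins1-Gins2 was 0.047 under quantile normalization. Same-numbered arrays did not deviate together (r = -0.07, 0.01 and 0.00 across genes). No pairing by number was seen, though 3 arrays per group cannot exclude one. With the replicate block 10 members rose and 4 fell, against 11 and 5, with E2f7 (adjusted p = 0.0595) and Mcm3 (0.0647) not called. Signal over background is unknown for each probe group, which limits the reading of dim rows.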
